A study of Homo sapiens with 12 samples.

Results

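Epithelial cells carry a cytoskeleton of keratins and are held together by junctions, and 9 genes of that kind were followed through the 12 libraries of the series: the keratins KRT7, KRT8, KRT18, KRT19, KRT80 and KRT81, the tight junction gene CLDN7, the adhesion gene EPCAM and the adherens junction gene CDH1. They were taken by symbol, and all 9 were found among the 58735 genes of the count table. Keratin filaments are built from pairs of a type I keratin (KRT18 and KRT19 here) and a type II keratin (KRT7, KRT8, KRT80 and KRT81 here). KRT8 with KRT18 is the pair of simple epithelia, KRT7 and KRT19 mark ductal epithelia, KRT80 is a keratin of differentiating epithelia, and KRT81 is a hair keratin. Claudins such as claudin-7 form the strands of tight junctions, EPCAM binds claudin-7 at the cell surface, and E-cadherin, the product of CDH1, holds adherens junctions together.

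The cells were MDA-MB-231, a human cell line grown from a triple-negative breast cancer, which has a mesenchymal shape. They carried a guide RNA against UFL1 (sgUFL1), a guide against UFM1 (sgUFM1) or a control guide (sgCtrl), and separate control libraries were made for each of these 2 targets. UFM1 is a small protein related to ubiquitin that is joined to other proteins, with UFL1 as the ligase for this step. The series speaks of knockdown in its title and of knockout in its design text, and whether a group was a clone or a pool is not given in the sources used here. Each of the 4 groups has 3 libraries of 15342793 to 18033331 counts, and the labels do not tie them to separate cultures. The p-values therefore weigh differences against the spread among libraries alone, and that spread may be technical.

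The 2 deposited tables did not name 6 of the 12 libraries alike. Set 1 here is the group called sgUFL1 in the table of counts and controls for sgUFM1 in the table of FPKM (fragments scaled by gene length and by library total). Set 2 is the reverse case: controls for sgUFM1 by the count table, sgUFL1 by the FPKM table. For the remaining groups, sgUFM1 and the controls for sgUFL1, the names matched. The effect of sgUFL1 is thus set 1 against the controls for sgUFL1 under the count table's names and set 2 against the same controls under the FPKM table's names. The effect of sgUFM1 is sgUFM1 against set 2 under the former and against set 1 under the latter. Read with the opposite names, the comparisons for sgUFL1 are between the 2 control groups, and those for sgUFM1 are between the 2 guides. Levels below are CPM, which are counts divided by library totals scaled with the TMM method over the 12 libraries.

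The targeted genes were read first. UFL1 averaged 12.5 ± 0.897 CPM (SD, n = 3) in set 2, 18.0 ± 1.27 in set 1, 23.1 ± 2.32 in sgUFM1 and 24.9 ± 5.25 in the controls for sgUFL1, so the libraries labelled sgUFL1 in the count table were not the lowest. UFM1 averaged 38.7 ± 1.35 CPM in sgUFM1, where it was lowest, and 53.5 to 65.6 CPM in the other groups. No group was reassigned from these values. Counted transcripts had a mean GC content of 48.97% to 49.96% in the controls for sgUFL1, below the 50.39% to 51.46% of the other 9 libraries, and every comparison is therefore given without and with offsets that remove each library's trend on GC content and gene length. All 10 markers of basal-like mesenchymal breast lines were above 1 CPM. Of 10 leukocyte markers 8 averaged below 1 CPM in every group and 2 of myeloid cells did not, CD14 (2.07 to 4.2 CPM) and CSF1R (0.497 to 3.29 CPM), and the list summed to 6.312 to 6.764 CPM in sgUFM1 and 3.851 to 6.242 CPM elsewhere.

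A near-identical gene matters for reading KRT81. KRT81 (ENSG00000205426, GRCh38 chromosome 12, 52285913 to 52291534, minus strand) lies beside KRT86, another hair keratin. The coding sequences of KRT81 and KRT86 were identical at 1361 of 1519 aligned positions (89.6%), and 37.6% of all 50-base words in KRT81 transcripts also occur in KRT86 transcripts. How reads that fit both were counted is not given in the sources used here, so KRT81 and KRT86 levels are uncertain against each other. KRT86 had 2000 counts over the 12 libraries and KRT81 had 49494.

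Sequence before a gene's start was at hand for KRT8 and CLDN7 in RefSeq (GRCh38.p14), and was searched for the 6 bases CACCTG on either strand (read as CAGGTG on the other), the core bound by the repressors ZEB1, ZEB2, SNAI1 and SNAI2, which act on epithelial genes. CLDN7 (ENSG00000181885, chromosome 17, 7259903 to 7263983, minus strand) had 4 matches in the 250 bases before one of its start sites, chr17:7262479-7262728. Of all 35116 windows of this length in the RefSeq table, 17.5% held at least 1 match and 0.122% held at least 4. The 3 stretches of 30 bases that hold the CLDN7 matches are shown with the matches in capitals, since the levels of the repressors are given further on.
CLDN7, chr17:7262635-7262664, minus strand, match 174 bases before the start: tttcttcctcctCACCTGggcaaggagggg
CLDN7, chr17:7262596-7262625, minus strand, match 135 bases before the start: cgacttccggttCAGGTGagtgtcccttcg
CLDN7, chr17:7262479-7262508, minus strand, matches 20 and 9 bases before the start: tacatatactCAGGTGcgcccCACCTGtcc
The window of the other CLDN7 start site, chr17:7263214-7263463, and that of KRT8, chr12:52926470-52926719, held 0 matches. A match describes these letters and shows no binding.

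Per length, KRT81 had the highest level of the 9 genes, with a median over the 12 libraries of 133.5 FPKM (range 87.74 to 168.4). KRT18 followed at 79.4 FPKM, then KRT8 at 60.5, KRT19 at 59.6 and KRT7 at 55.5 FPKM. The ranges of these 4 keratins over the libraries overlapped, and the highest KRT18 value (102.4 FPKM) exceeded the lowest KRT81 value. KRT80 stood at 35.0 FPKM, with its highest library (39.2) below the lowest of KRT7 (39.48). CLDN7 had 9.89 FPKM (4.648 to 14.31) and EPCAM 3.21 FPKM (2.317 to 3.827), and their ranges did not overlap each other. CDH1 (ENSG00000039068, chromosome 16, 68737225 to 68835548) was near the detection limit, with 27 counts in all 12 libraries together. The length used for FPKM joins all annotated exons of a gene, 1929 bases for KRT81 and 6881 for KRT8. The order of the genes depends on that choice. By counts KRT8 was highest, with 83894 over the 12 libraries beside 49494 for KRT81.

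The 6 keratins made up nearly all keratin RNA of these cells. The count table lists 55 keratin genes, of which 9 had a median of at least 1 FPKM, and the other 3 were KRT10 (21.2 FPKM), KRT86 (4.14 FPKM) and KRT79 (1.97 FPKM). There were 27 keratin genes with no count in any library. The 6 keratins held 95.8% of all keratin counts. The basal keratins KRT5 and KRT14, which pair in the basal layer of stratified epithelia, had 1 and 4 counts in all.

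**Figure D1:**
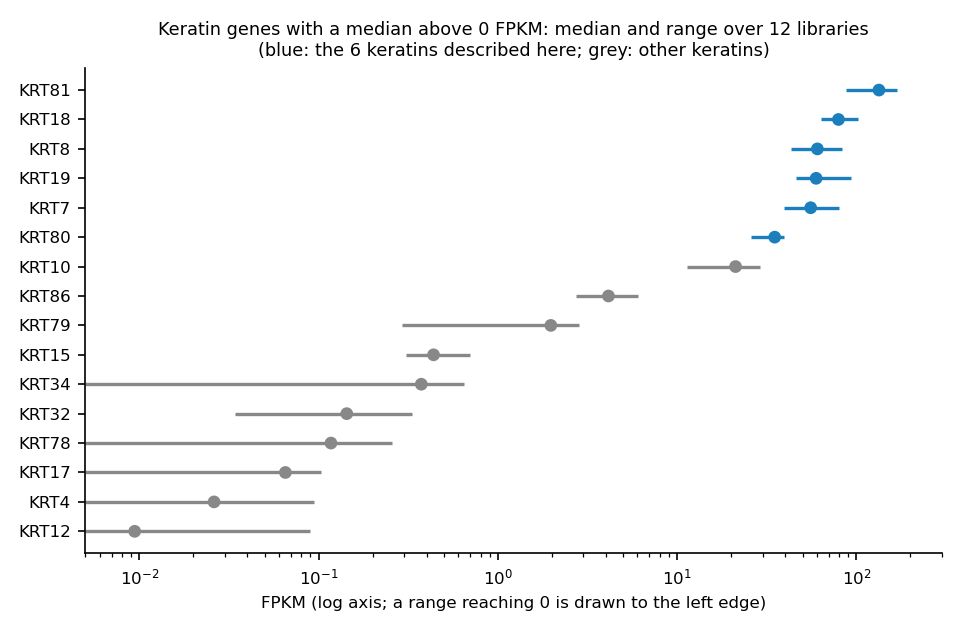
Median (point) and range (line) of FPKM over the 12 libraries, on a log axis, for each keratin gene with a median above 0. The medians of the 6 keratins described here (blue) lie above those of the other keratins (grey), of which KRT10 at 21.2 FPKM is the highest. The range of KRT10 (11.3 to 28.79 FPKM) overlaps that of KRT80 (25.8 to 39.2 FPKM).

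KRT7 and KRT8 formed one pattern without offsets, high in sets 1 and 2 and low in the controls for sgUFL1 and in sgUFM1. KRT7 (ENSG00000135480, chromosome 12, 52232520 to 52252186) had 168.5, 227.9 and 163.2 CPM in the controls for sgUFL1 (replicates 1, 2 and 3), 229.8, 282.4 and 283.8 in set 1, 281.6, 330.6 and 315.4 in set 2, and 190.6, 177.1 and 165.2 in sgUFM1. Every library of sets 1 and 2 lay above every library of the other 2 groups, which overlapped each other. KRT8 (ENSG00000170421, chromosome 12, 52897187 to 52949954) had 355.5, 427.5 and 297.9 CPM in the controls for sgUFL1, 411, 491.9 and 504.4 in set 1, 468.1, 581.8 and 553.6 in set 2, and 354.8, 351.6 and 346.8 in sgUFM1. All sgUFM1 libraries lay below all of sets 1 and 2 for KRT8, while control replicate 2 reached into the range of set 1. With offsets the controls for sgUFL1 overlapped set 1 for KRT7 (190.6 to 249.5 and 223.1 to 263.1 CPM) and for KRT8 (380.5 to 467.6 and 391.9 to 472.8 CPM). All sgUFM1 libraries stayed below sets 1 and 2 for both genes.

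KRT18, the type I partner of KRT8, differed less between groups. KRT18 (ENSG00000111057, chromosome 12, 52948871 to 52952901) had 241.4, 331.2 and 206.9 CPM in the controls for sgUFL1, 245, 318 and 318.4 in set 1, 270.8, 308.1 and 289 in set 2, and 222.4, 220 and 241 in sgUFM1. The controls for sgUFL1 held both the lowest and the highest KRT18 level of the 12 libraries, and sgUFM1 lay below sets 1 and 2 without overlap. KRT80 (ENSG00000167767, chromosome 12, 52168996 to 52192000) ranged from 113.3 to 150.2 CPM in the controls for sgUFL1 and from 142.2 to 161.8 in sgUFM1, with 137.1 to 166.5 for set 1 and 151.3 to 172.8 for set 2. Only set 2 and the controls for sgUFL1 did not overlap for KRT80.

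KRT19, KRT81 and CLDN7 formed a second pattern without offsets, lowest in the controls for sgUFL1. KRT19 (ENSG00000171345, chromosome 17, 41523617 to 41528308) had 125.5, 108.2 and 121.4 CPM in the controls for sgUFL1, 148.1, 135 and 139.9 in set 1, 184.4, 219.1 and 208 in set 2, and 141.1, 140.4 and 140.1 in sgUFM1. Set 2 lay above all other libraries for KRT19, and set 1 and sgUFM1 overlapped. KRT81 had 205.4, 170.1 and 188.7 CPM in the controls for sgUFL1, 266.3, 244.5 and 268.2 in set 1, 262.1, 328.7 and 306.8 in set 2, and 289.5, 250.1 and 257.5 in sgUFM1. The controls for sgUFL1 lay below all other libraries for KRT81, and the other 3 groups overlapped.

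CLDN7 had 18.61, 11.64 and 13.17 CPM in the controls for sgUFL1, 24.91, 18.89 and 18.96 in set 1, 30.5, 35.01 and 36.13 in set 2, and 27.02, 26.47 and 24.75 in sgUFM1. Set 2 was highest without overlap, and the controls for sgUFL1 were lowest without overlap. EPCAM (ENSG00000119888, chromosome 2, 47345158 to 47387601), the partner of claudin-7, ranged from 5.962 to 8.411 CPM in the controls for sgUFL1 and from 7.905 to 8.631 in sgUFM1, with 5.887 to 8.303 for set 1 and 9.191 to 9.748 for set 2. Its 3 set 2 libraries lay above all others, and the other 3 groups overlapped.

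CDH1 had 3, 5 and 1 counts in the controls for sgUFL1, 0, 2 and 0 in set 1, 5, 6 and 2 in set 2, and 0, 0 and 3 in sgUFM1. A count of 0 allows up to 3 counts, which is 0.166 to 0.196 CPM at these depths, counting error only. CDH1 did not pass the filter on low counts, so it has no test here and a difference between groups was not detectable at this depth. The 8 other genes passed it in every comparison.

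**Figure D2:**
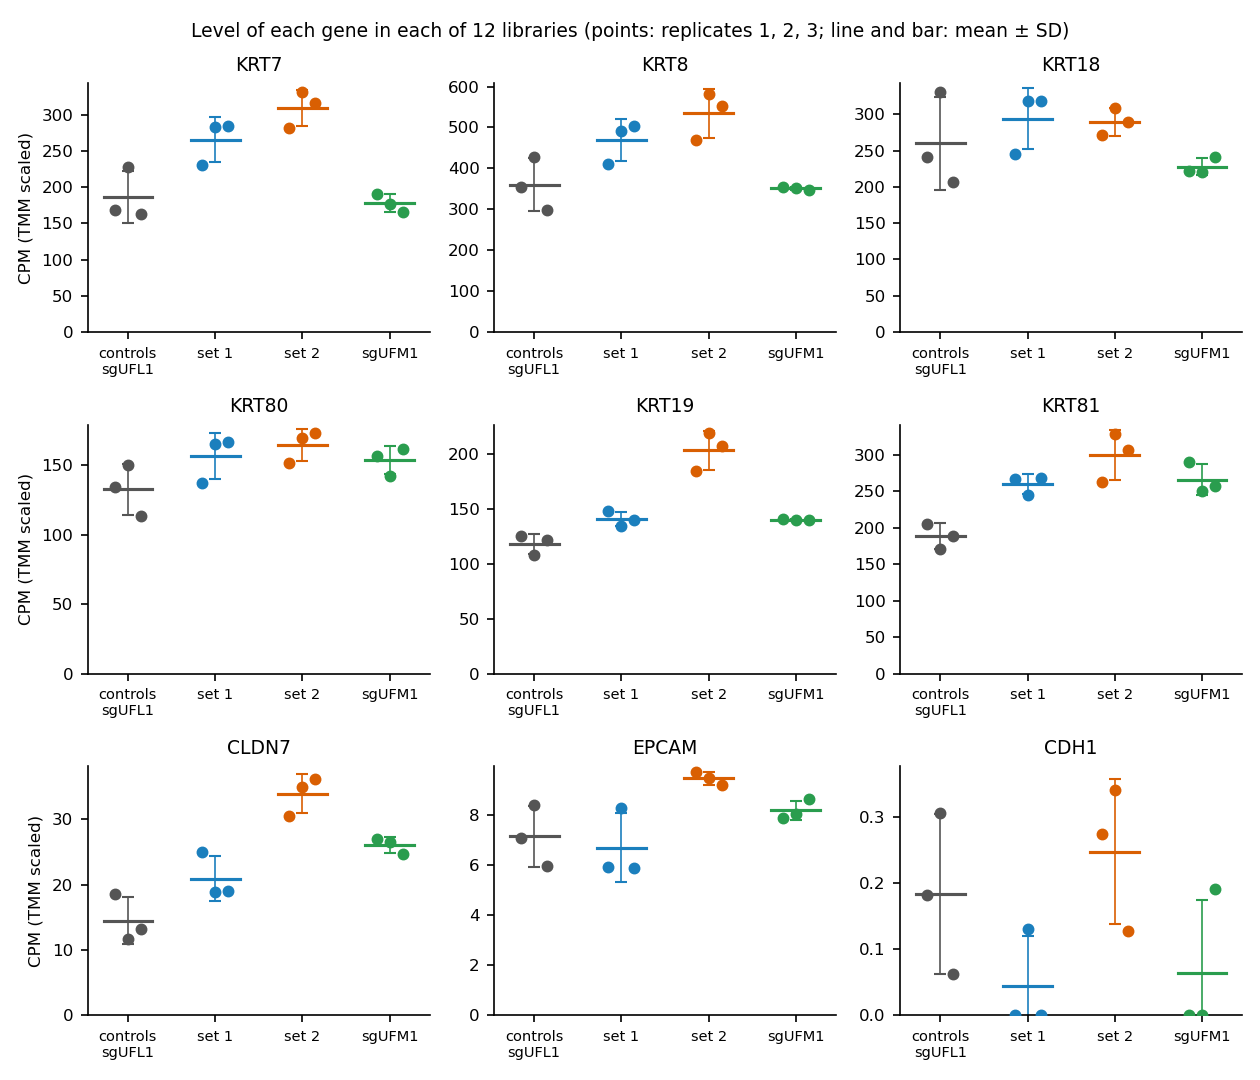
CPM of each of the 9 genes (vertical axis, from 0) in the controls for sgUFL1, set 1, set 2 and sgUFM1; points are replicates 1, 2 and 3 from left to right, lines are means and bars SD. KRT7 and KRT8 are high in sets 1 and 2, KRT19, CLDN7 and EPCAM are highest in set 2, and CDH1 is near 0 throughout.

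Tests used the quasi-likelihood test of edgeR on counts, with Benjamini-Hochberg adjustment over all genes tested and a threshold of 0.05. The comparison that both tables name alike is sgUFM1 against the controls for sgUFL1, which by their titles belong to the other guide. The guide and any separate culture or preparation of these groups cannot be told apart. CLDN7 rose by a log2 difference of 0.85 (SE 0.17, adjusted p = 0.011), 1.8-fold. KRT81 rose by 0.50 (SE 0.11, adjusted p = 0.017). KRT7 (-0.07, SE 0.13) and KRT8 (-0.04, SE 0.13) did not pass the test. With 2 of 8 genes higher (5.57% of all genes tested were higher) and 0 lower (4.43% of all genes), the median of the 8 was 0.20 and that of all genes -0.004.

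With offsets 0 of the 8 were called in that comparison (4.3% of all genes were higher and 3.9% lower), and 4 had an unadjusted p below 0.05. CLDN7 then stood at 0.59 (SE 0.17, adjusted p = 0.051) and KRT81 at 0.12 (SE 0.12, adjusted p = 0.57). The CLDN7 call ended without sgUFM1 replicate 1 (0.83, adjusted p = 0.058) or replicate 2 (0.84, adjusted p = 0.051). The KRT81 call ended without any one of the sgUFM1 libraries (0.43 to 0.54, adjusted p = 0.062 to 0.12). Without control replicate 2, KRT80 was called as well (0.31, adjusted p = 0.042), where 27.1% of all genes were called. The summed level of 12 luminal breast markers was 346.8 to 356.6 CPM in sgUFM1 and 242.9 to 297.1 CPM in the other groups, and that of 11 fibroblast and endothelial markers 47.22 to 52.67 CPM and 26.64 to 38.28 CPM. In the latter list PECAM1, an endothelial adhesion gene, had 25.4 to 29.4 CPM in sgUFM1 and 5.76 to 10.9 CPM elsewhere, and the other 10 markers summed to 21.6 to 25.6 CPM in sgUFM1 and 15.8 to 30.4 CPM elsewhere. COL1A1 (9.86 to 13.4 CPM) and PDGFRB (8.33 to 8.88 CPM) were present in sgUFM1, while COL1A2, DCN and LUM were at 0 there, as was KRT20 of the luminal list. The part of these shifts in the results was not tested.

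For sgUFL1 against its own controls the tables' names decide which libraries are compared. Under the other table's names, each of these comparisons sets the controls for sgUFM1 against the controls for sgUFL1. Its differences would then lie between control groups. Under the FPKM table's names (set 2 against the controls for sgUFL1) 5 of the 8 genes rose and 0 fell, where 17.4% of all genes tested were higher and 18.4% lower. CLDN7 rose most, by 1.21 (SE 0.17, adjusted p = 0.0008), 2.31-fold. KRT19 rose by 0.76 (SE 0.11, adjusted p = 0.001), KRT7 by 0.71 (SE 0.14, adjusted p = 0.0026), KRT81 by 0.65 (SE 0.12, adjusted p = 0.0022) and KRT8 by 0.55 (SE 0.14, adjusted p = 0.0084). KRT18 (0.14), KRT80 (0.29) and EPCAM (0.39) did not pass. The median of the 8 was 0.60, beside -0.03 for all genes.

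With offsets CLDN7 was the 1 gene still called in set 2, at 0.70 (SE 0.16, adjusted p = 0.024), where 4.65% of all genes were higher and 4.05% lower. KRT7 stood at 0.30 (adjusted p = 0.074), KRT8 at 0.24 (adjusted p = 0.16), KRT19 at 0.19 (adjusted p = 0.33) and KRT81 at -0.08 (adjusted p = 0.71). The 6 keratins and CLDN7 have transcripts of 57.3% to 62.8% GC, above the median of 49.5% over the genes tested, while EPCAM has 47.1%. Across genes, which are not independent replicates, the log2 difference of set 2 from the controls followed GC content with a Spearman rho of 0.734. With offsets rho was -0.01, which is no separate check, since the offsets are built to remove this trend. Without control replicate 2, in which KRT7, KRT8, KRT18 and KRT80 were highest and CLDN7 lowest of the controls, all 8 genes were called without offsets (44.9% of all genes were), and without set 2 replicate 2 the call of KRT8 ended (0.49, adjusted p = 0.056).

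**Figure D3:**
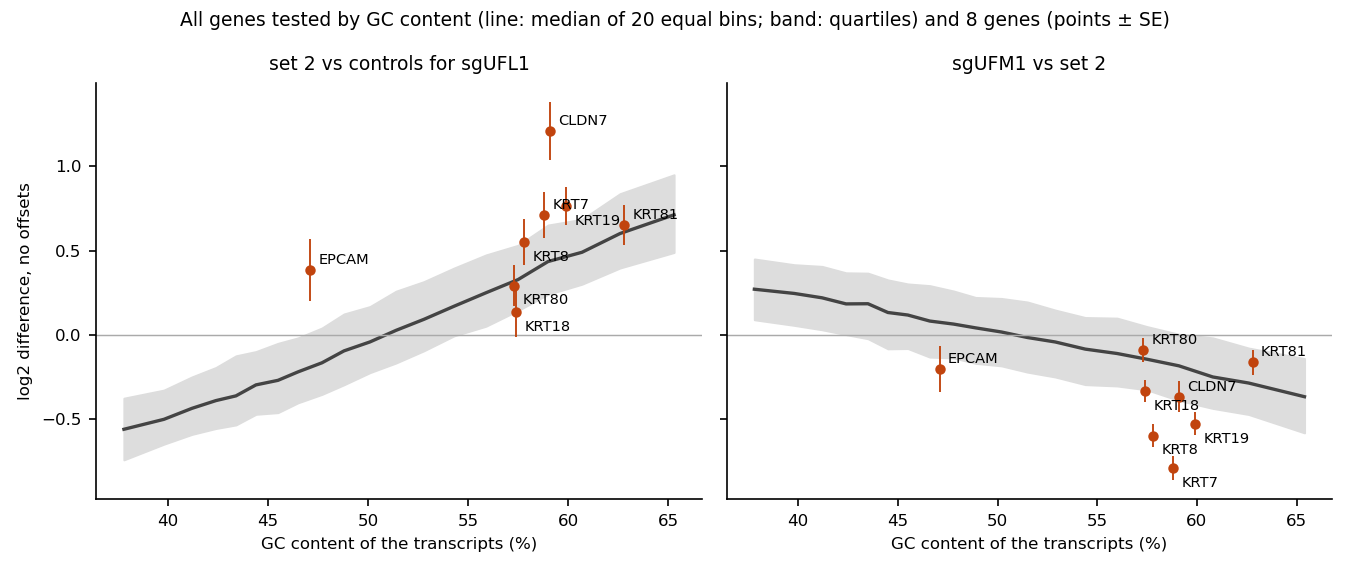
Log2 difference without offsets (vertical axis) against GC content of the transcripts (horizontal axis), for all genes tested as the median of 20 equal bins (line) and quartiles (band), and for the 8 genes as points ± SE. In set 2 against the controls for sgUFL1 (left) the median rises from -0.56 in the bin of lowest GC to 0.71 in the highest. There KRT81 lies near the line, and CLDN7, KRT7, KRT19 and EPCAM lie above the band. In sgUFM1 against set 2 (right) KRT7, KRT8, KRT19 and EPCAM lie below the band.

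Under the count table's names (set 1 against the controls for sgUFL1) the differences pointed the same way for 7 of the 8 genes but 0 passed in edgeR, where 1.08% of all genes were higher and 0.02% lower. KRT7 stood at 0.52 (SE 0.15, adjusted p = 0.087), CLDN7 at 0.55 (SE 0.20, adjusted p = 0.12), KRT81 at 0.48 (SE 0.11, adjusted p = 0.059) and KRT8 at 0.40 (SE 0.15, adjusted p = 0.13). At an unadjusted p below 0.05 there were 5 of the 8 and 28% of all genes. DESeq2 called 2 (KRT7 and KRT81) and 15.1% of all genes, and limma on FPKM called 0 of either. Without control replicate 2 edgeR called KRT7 (0.70, adjusted p = 0.015), KRT8 (0.54, adjusted p = 0.032) and KRT81 (0.42, adjusted p = 0.045), and 15.7% of all genes. With offsets the largest rise of the 8 was KRT7 at 0.18 (adjusted p = 0.79) and the largest fall KRT19 at -0.19 (adjusted p = 0.8). There 0% of all genes were higher and 0% lower. In that fit 0 of the 8 and 1073 of 14996 genes had an unadjusted p below 0.05.

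For sgUFM1 against its own controls, KRT7 and KRT8 fell under either naming, with and without offsets. Under the count table's names (sgUFM1 against set 2) 5 of the 8 genes fell and 0 rose, where 18.5% of all genes tested were lower and 19.3% higher. KRT7 fell by 0.79 on the log2 scale (SE 0.07, adjusted p = 5.8e-08), to 0.578 of its set 2 level. KRT8 fell by 0.60 (SE 0.07, adjusted p = 1.7e-06) and its partner KRT18 by 0.34 (SE 0.07, adjusted p = 0.00044). KRT19 fell by 0.53 (SE 0.07, adjusted p = 6.7e-06) and CLDN7 by 0.37 (SE 0.09, adjusted p = 0.0037). KRT80 (-0.09), KRT81 (-0.16) and EPCAM (-0.20) did not pass, although KRT81 did without set 2 replicate 1 (-0.26, adjusted p = 0.0015) or sgUFM1 replicate 1 (-0.23, adjusted p = 0.036). The median of the 8 was -0.35, beside 0.01 for all genes.

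With offsets 4 of the 8 fell in that comparison and 1 rose, where 16.7% of all genes were lower and 16.1% higher. KRT7 fell by 0.60 (SE 0.05, adjusted p = 7.1e-10), KRT8 by 0.47 (SE 0.05, adjusted p = 1.5e-07), KRT19 by 0.25 (SE 0.05, adjusted p = 0.00023) and KRT18 by 0.15 (SE 0.05, adjusted p = 0.019). CLDN7 stood at -0.12 (SE 0.07, adjusted p = 0.23). KRT81 changed sign and passed on the other side, at 0.20 (SE 0.05, adjusted p = 0.0013). Per length the ratio of KRT81 to KRT8 was 2.7 ± 0.192 (SD, n = 3) in sgUFM1 and 2 ± 0.0189 in set 2, and this ratio needs no scaling between libraries. The fall of KRT8 enters the ratio, so it does not show a rise of KRT81. A GC trend can also enter it, with 62.8% GC for KRT81 and 57.8% for KRT8. Its size depends on the gene lengths used, which are the same in both groups.

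Under the FPKM table's names (sgUFM1 against set 1) 3 of the 8 genes fell and 0 rose, where 5.15% of all genes were lower and 4.57% higher. KRT7 fell by 0.58 (SE 0.10, adjusted p = 0.0067), KRT8 by 0.42 (SE 0.09, adjusted p = 0.016) and KRT18 by 0.37 (SE 0.10, adjusted p = 0.046). KRT19 stood at -0.01 (SE 0.07), KRT80 at -0.03 (SE 0.09) and KRT81 at 0.03 (SE 0.08). With offsets KRT7 fell by 0.46 (SE 0.08, adjusted p = 0.0087) and KRT8 by 0.34 (SE 0.08, adjusted p = 0.034), where 3.5% of all genes were lower and 4.28% higher, and KRT18 stood at -0.26 (adjusted p = 0.1). Without sgUFM1 replicate 2 or 3, 0 of the 8 genes were called, with KRT7 at -0.58 and -0.52 (adjusted p = 0.065 and 0.059). Without set 1 replicate 2, set 1 replicate 3 or sgUFM1 replicate 1 only KRT7 was called, and without set 1 replicate 1 CLDN7 was called as higher (0.46, adjusted p = 0.0022), where 26.7% of all genes were called.

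Set 1 and set 2, whose names the tables exchange, differed in KRT19 and CLDN7. KRT19 was lower in set 1 by 0.54 (SE 0.09, adjusted p = 0.018) and CLDN7 by 0.70 (SE 0.13, adjusted p = 0.032), so 2 of the 8 were lower and 0 higher, where 1.49% of all genes were lower and 0.705% higher. With offsets KRT19 was still lower, by 0.40 (SE 0.07, adjusted p = 0.028), and CLDN7 stood at -0.56 (SE 0.14, adjusted p = 0.054), where 1.74% of all genes were lower and 1.06% higher. EPCAM stood at -0.50 (SE 0.17, adjusted p = 0.14), and KRT7 at -0.23 (SE 0.10, adjusted p = 0.23). Without set 1 replicate 2 or 3, or set 2 replicate 2 or 3, neither was called (KRT19 -0.48 to -0.53, CLDN7 -0.63 to -0.67), and without set 2 replicate 1 only KRT19 was.

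**Figure D4:**
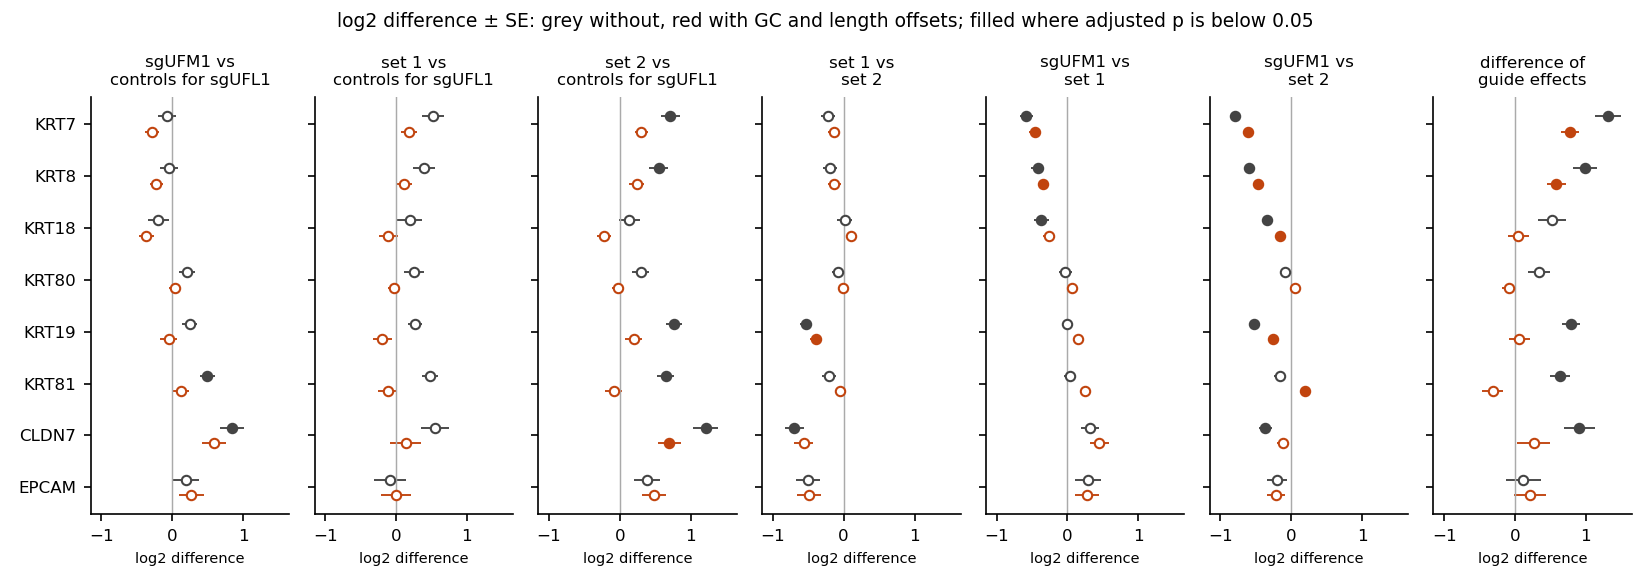
Log2 difference ± SE (horizontal axis) of 8 genes in 7 comparisons, without offsets (grey) and with GC and length offsets (red); filled points passed an adjusted p of 0.05 in edgeR. KRT7 and KRT8 stay filled with offsets in sgUFM1 against set 1, in sgUFM1 against set 2 and in the difference of the guide effects, while the KRT81 difference moves from 0.65 to -0.08 in set 2 against the controls for sgUFL1.

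The difference between the 2 guides' effects does not depend on the naming, since exchanging set 1 and set 2 gives the same sum: sets 1 and 2 minus the controls for sgUFL1 minus sgUFM1. A difference between the 2 control groups also enters this sum. For KRT7 that difference was 0.71 if set 2 holds the controls for sgUFM1, or 0.52 if set 1 does. How much of the sum belongs to the guides was not tested. Fitted over all 12 libraries, 5 of the 8 genes had a more positive effect of sgUFL1 than of sgUFM1, each against its own controls. The reverse held for 0, where 17.9% of all genes were higher and 17% lower. The difference was 1.31 for KRT7 (SE 0.18, adjusted p = 0.00019), 0.99 for KRT8 (SE 0.17, adjusted p = 0.0009), 0.91 for CLDN7 (SE 0.22, adjusted p = 0.0061), 0.79 for KRT19 (SE 0.12, adjusted p = 0.00045) and 0.64 for KRT81 (SE 0.14, adjusted p = 0.0038). KRT18 stood at 0.52 (adjusted p = 0.057), KRT80 at 0.34 (adjusted p = 0.1) and EPCAM at 0.12 (adjusted p = 0.75). KRT18 and KRT80 passed without control replicate 2 (0.74 and 0.44, adjusted p = 0.0015 and 0.027) or set 1 replicate 1 (0.60 and 0.39, adjusted p = 0.019 and 0.049). With offsets KRT7 (0.78, SE 0.13, adjusted p = 0.0024) and KRT8 (0.58, SE 0.13, adjusted p = 0.014) were called, where 5.09% of all genes were higher and 4.08% lower. CLDN7 was then 0.26 (adjusted p = 0.53), KRT19 0.06 (adjusted p = 0.85) and KRT81 -0.32 (adjusted p = 0.21).

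Within the controls for sgUFL1 and within set 1 the 2 patterns also parted, but not within set 2 or sgUFM1. Among the controls for sgUFL1, replicate 2 was the highest of the 3 for KRT7, KRT8, KRT18, KRT80 and EPCAM and the lowest for KRT19, KRT81 and CLDN7. In set 1 replicate 1 was the lowest for KRT7, KRT8, KRT18 and KRT80 and the highest for KRT19 and CLDN7. In set 2 replicate 1 was the lowest for KRT7, KRT8, KRT18 and KRT80 and also for KRT19, KRT81 and CLDN7. In sgUFM1 replicate 1 was the highest for KRT7 and KRT8 and also for KRT19, KRT81 and CLDN7. As a measure of likeness over the 12 libraries, which share groups and GC trends, Pearson's r between log2 levels was 0.977 for KRT7 with KRT8 (0.939 with offsets), 0.843 for KRT19 with KRT81 (0.517 with offsets) and 0.916 for KRT81 with CLDN7 (0.477 with offsets). KRT18 with CLDN7 had -0.04, and -0.86 with offsets. These values are descriptions without a test.

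**Figure D5:**
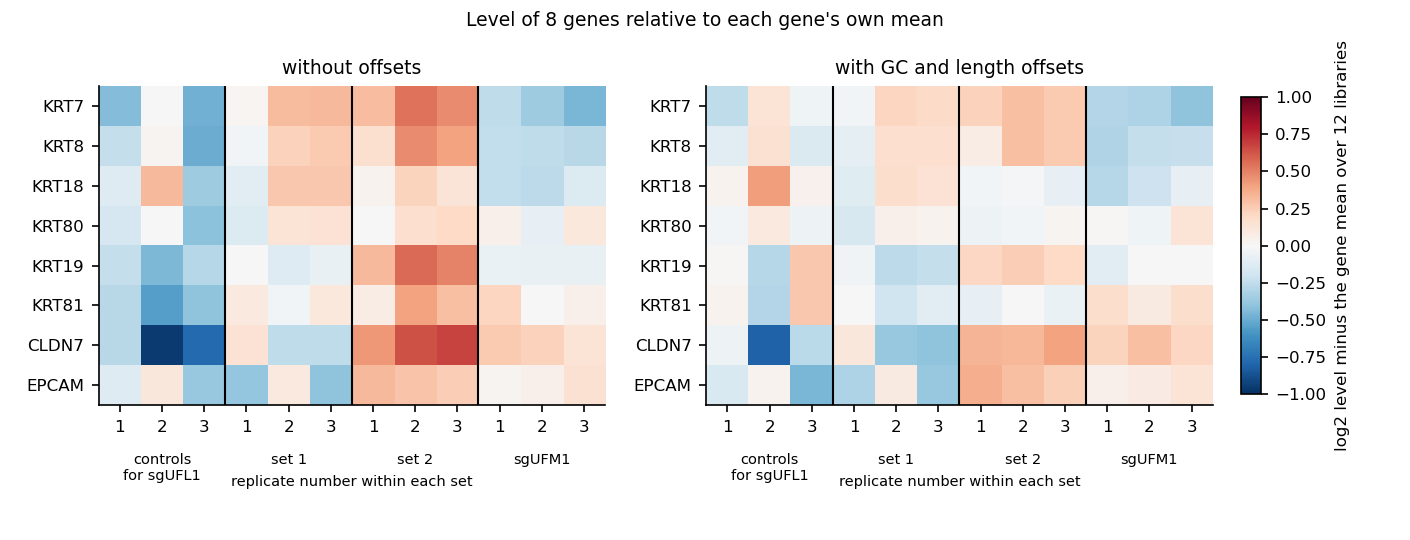
Log2 level of 8 genes (rows) in each of 12 libraries (columns, replicates 1 to 3 of each group), minus the mean of the gene, without offsets (left) and with GC and length offsets (right). Sets 1 and 2 stay above sgUFM1 for KRT7 and KRT8 on both sides, while the low values of KRT19 and KRT81 in the controls for sgUFL1 are seen in all 3 libraries only on the left.

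KRT8 and KRT18 assemble together, and their balance shifted between groups. The ratio of KRT8 to KRT18 in FPKM was lowest in the controls for sgUFL1 at 0.655 ± 0.0453 (SD, n = 3), followed by sgUFM1 at 0.722 ± 0.0425, set 1 at 0.75 ± 0.0315 and set 2 at 0.863 ± 0.0472. The ratios of set 2 (0.809 to 0.896) lay above those of all other groups (0.604 to 0.785). KRT7 to KRT18 had the same order, with 0.57 ± 0.0436, 0.615 ± 0.0692, 0.712 ± 0.0221 and 0.84 ± 0.0205. KRT8 and KRT18 are neighbours that share 525 exon bases on opposite strands (7.63% of KRT8 and 16.3% of KRT18), and whether counting took strand into account is not given in the sources used here, so reads of that stretch cannot be told apart. The 50 pseudogenes of KRT8 had 1.45% as many counts as KRT8, and the 67 of KRT18 had 0.451% as many as KRT18.

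The genes whose pattern over the 12 libraries was most like each tested member were sought among 10533 protein-coding genes of at least 5 CPM. The members themselves, and so their keratins, were left out of this search. COTL1, which encodes an actin-binding protein, was among the 3 most like genes for KRT7 (r = 0.985, and 0.965 with offsets) and for KRT8 (r = 0.99, and 0.975 with offsets). The most like gene of KRT7 was HRAS (r = 0.988), whose likeness was lower with offsets (0.717). KRT18 was most like POLD2, a DNA polymerase delta subunit (0.967, and 0.955 with offsets), and KRT19 most like ALDH1B1, a mitochondrial aldehyde dehydrogenase (0.986, and 0.978 with offsets). KRT81 was most like ACTR1B (0.970, and 0.912 with offsets), CLDN7 most like DBNDD1 (0.969, and 0.89 with offsets) and KRT80 most like ELP6 (0.977, and 0.563 with offsets). EPCAM was most like DMBT1 (0.908, and 0.920 with offsets).

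Of the members, 5 lie in one stretch of chromosome 12, from the start of KRT80 at 52168996 to the end of KRT18 at 52952901, which is the type II keratin cluster with KRT18 at its end. The table lists 53 genes there, and 9 passed the filter, of which 4 are not members: KRT86, KRT79, KRT87P and KRT7-AS. Against the controls for sgUFL1, KRT86 rose in sgUFM1 by 0.80 (SE 0.19, adjusted p = 0.021) and in the libraries of set 2 by 0.57 (SE 0.18, adjusted p = 0.024). With offsets it did not pass in either (0.45 and -0.12), but it passed as higher in sgUFM1 against set 2 (0.56, adjusted p = 0.0017) and against set 1 (0.61, adjusted p = 0.039). KRT81, its near copy, was also higher with offsets in the former. KRT79 rose in sgUFM1 against set 2 (0.85, SE 0.20, adjusted p = 0.0021; with offsets 1.06, adjusted p = 0.00011), where KRT7 and KRT8 fell. KRT7-AS, which runs antisense over 282 exon bases of KRT7, stood at -0.32 in the same comparison (adjusted p = 0.38).

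Other keratins were few. Of 26 other type I keratins 3 were tested, and KRT10, a keratin of differentiated epidermis, fell in sgUFM1 against set 2 by 0.63 (SE 0.09, adjusted p = 2.6e-05; with offsets 0.55) and against set 1 by 0.47 (SE 0.11, adjusted p = 0.026; with offsets 0.44). It rose in set 2 against the controls for sgUFL1 by 0.88 (SE 0.15, adjusted p = 0.0015; with offsets 0.79). KRT10 had the same direction as KRT7 and KRT8 in these 3 comparisons, which share libraries. Of 22 other type II keratins KRT79 and KRT86 were tested.

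The lists that follow are counted in sgUFM1 against set 2, where 19.3% of all genes tested rose and 18.5% fell (16.1% and 16.7% with offsets). Of 34 other tight junction genes 19 were tested in sgUFM1 against set 2, and 6 rose and 2 fell (2 and 2 with offsets), with a median of 0.10 beside 0.01 for all genes. CLDN4, a claudin like CLDN7, fell by 0.40 (SE 0.08, adjusted p = 0.00054; with offsets 0.28), and CGN, which encodes the junction plaque protein cingulin, fell by 0.73 (SE 0.12, adjusted p = 0.00011; with offsets 0.65). PARD6B, a polarity gene, rose by 0.52 (SE 0.11, adjusted p = 0.00062; with offsets 0.40). In set 2 against the controls for sgUFL1 4 rose and 5 fell (1 and 0 with offsets), against 17.4% and 18.4% of all genes (4.65% and 4.05% with offsets), among them LSR, a protein of tricellular junctions, which rose by 1.00 (SE 0.15, adjusted p = 0.0011; with offsets 0.35). LSR also rose in sgUFM1 against the same controls (0.94, SE 0.15, adjusted p = 0.0044; with offsets 0.63).

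Of 21 other adherens junction genes 16 were tested in sgUFM1 against set 2, and 6 rose and 4 fell (3 and 6 with offsets), with a median of -0.04, against 19.3% and 18.5% of all genes (16.1% and 16.7% with offsets). The cadherin CDH11 rose by 0.85 (SE 0.06, adjusted p = 4.2e-09), and also rose against set 1 (0.70, SE 0.12, adjusted p = 0.0068) and the controls for sgUFL1 (0.69, SE 0.12, adjusted p = 0.0056). The cadherin CDH4 fell by 1.21 against set 2 (SE 0.07, adjusted p = 1.6e-10) and by 0.55 against set 1 (SE 0.09, adjusted p = 0.006). Offsets kept both directions and calls of CDH11 and CDH4 in these comparisons. CDH3, which encodes P-cadherin, was low, at 2.12 CPM in set 2 and 0.506 in sgUFM1, and fell by 2.04 (SE 0.38, adjusted p = 0.00031). The cadherin-binding catenins CTNNB1 and CTNND1 rose against set 2 by 0.43 (SE 0.06, adjusted p = 1.6e-05; with offsets 0.25) and 0.19 (SE 0.06, adjusted p = 0.019; with offsets 0.05, adjusted p = 0.48).

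Of 19 desmosome and filament linker genes 11 were tested, and in sgUFM1 against set 2 1 rose and 2 fell (2 and 6 with offsets), with a median of -0.05. Without offsets that is no larger a share than the 19.3% and 18.5% over all genes (16.1% and 16.7% with offsets). PKP3, which encodes the desmosomal plaque protein plakophilin-3, fell by 0.58 (SE 0.11, adjusted p = 0.00026), but stood at -0.14 with offsets (adjusted p = 0.24). DSP, which encodes desmoplakin, the anchor of keratin filaments, fell by 0.32 (SE 0.10, adjusted p = 0.014; with offsets 0.42). DSP was also lower in set 1 than in set 2 by 0.65 (SE 0.12, adjusted p = 0.03; with offsets 0.68). In set 2 against the controls for sgUFL1 4 rose and 2 fell (2 and 0 with offsets), against 17.4% and 18.4% of all genes, and DSP was among those that rose (0.42, SE 0.14, adjusted p = 0.032; with offsets 0.55).

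Of 26 regulators and markers of the epithelial state 13 were tested in sgUFM1 against set 2, and 1 rose and 3 fell, with and without offsets, around a median of -0.18 without them. Over all genes the shares were 19.3% and 18.5% (16.1% and 16.7% with offsets). AP1M2, an adaptor subunit for basolateral sorting, fell by 0.56 (SE 0.11, adjusted p = 0.00042; with offsets 0.38), and EHF, an epithelial transcription factor, rose by 2.39 (SE 0.20, adjusted p = 1.8e-08; with offsets 2.36). Of 10 repressors of epithelial genes 6 were tested, and 2 rose and 1 fell (1 and 1 with offsets), with a median of 0.10, beside the same shares over all genes. ZEB1 rose by 0.63 (SE 0.10, adjusted p = 8.4e-05; with offsets 0.38) and SNAI2 fell by 0.51 (SE 0.13, adjusted p = 0.0039; with offsets 0.56). ZEB2 rose by 0.45 (SE 0.11, adjusted p = 0.0031), but stood at 0.23 with offsets (adjusted p = 0.051). ZEB1 was lower in set 2 than in the controls for sgUFL1 by 0.70 (SE 0.13, adjusted p = 0.0026), but with offsets by 0.28 (adjusted p = 0.07), and CLDN7, whose stretches with CACCTG are shown above, was higher there in both fits. In sgUFM1 against the same controls CLDN7 rose by 0.85 while ZEB1 stood at -0.07 (adjusted p = 0.75; with offsets 0.10). A relation between these was not tested. Of 14 other intermediate filament genes 7 were tested, and in sgUFM1 against set 2 2 rose and 1 fell (4 and 0 with offsets), with a median of 0.15, in the comparison where 19.3% and 18.5% of all genes did. Vimentin (VIM), the main filament of mesenchymal cells, rose by 0.22 (SE 0.06, adjusted p = 0.0054; with offsets 0.29).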

How the data were processed

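RNA of 12 MDA-MB-231 libraries was extracted with TRIzol and sequenced on Illumina instruments. The authors deposited a table of raw read counts per gene and, separately, a table of FPKM values per gene, both as per the file headers. STAR 2.7.7a, fastp 0.20.1, featureCounts 2.0.0 and GRCh38 are named in the submitters' processing notes, and the handling of strand and of reads that fit several genes is not given in the sources used here. Libraries were matched between the tables over 11031 genes with at least 50 counts in every library, and 6 of the 12 were named differently. Samples were grouped by their labels.

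Counts were tested with edgeR 4.0.16 (quasi-likelihood test, filterByExpr, TMM scaling) in R 4.3.3 on the 6 libraries of each comparison, or on 12 for the difference of guide effects, with Benjamini-Hochberg adjustment over all genes tested. Offsets were each library's lowess trends (span 0.3) on GC content, averaged over a gene's GENCODE release 29 transcripts, and on gene length. Alternatives were RLE scaling, no filter, DESeq2 1.42.0, a fit over all 12 libraries, a replicate block, limma 3.58.1 on log2(FPKM + 0.5), + 0.1 or + 1 with at least 0.5 FPKM in 3 libraries, and leaving out each library. Offsets with the GC content of the longest transcript were added after seeing the data. The fitting code was tested on simulated data. Replicates of a group differed by more than sampling noise (chi-square per gene 2.48 to 39.6), so none were merged. From each list of related genes, up to 4 with at least 1 CPM in a group that passed the threshold in any pairwise comparison could be named, by smallest unadjusted p, besides known partners of the members. Like genes were the 3 with the highest Pearson correlation, members left out. The members and lists were chosen with earlier results of these data known. Some results are not reported here.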

Additional observations from a re-analysis of the deposited data

Results flagged for a closer look

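For 5 of the 8 tested genes the effect of sgUFL1 differed from that of sgUFM1 when the difference between the effects was itself tested over the 12 libraries with edgeR, a test that called 34.8% of all genes (9.18% with offsets). The log2 differences were 1.31 for KRT7, 0.987 for KRT8, 0.908 for CLDN7, 0.788 for KRT19 and 0.637 for KRT81. KRT7 and KRT8 passed the threshold under all 22 alternatives run, with ranges of 0.50 to 1.48 and 0.58 to 1.13. CLDN7, KRT19 and KRT81 passed under 19 of the 22, and the 3 others were the fits with offsets.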

How the results depend on the processing

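Of the 8 genes tested, the number called changed as follows. In sgUFM1 against the controls for sgUFL1 (2 called) it was 0 with offsets, 1 with offsets from the longest transcript (KRT7, lower), 1 with limma at each pseudocount, and 0 to 3 when 1 library was left out, and the block with offsets called 2, CLDN7 higher (0.61) and KRT18 lower (-0.36). In set 1 against those controls (0 called) it was 3 without the filter, 4 in the fit over all 12 libraries, 2 with DESeq2, and 0 to 3 with a library left out. In set 2 against them (5 called) it was 1 with either kind of offsets, 2 with the replicate block and offsets, and 4 to 8 with a library left out. In sgUFM1 against set 2 (5 called) it was 3 in the fit over all 12 libraries and 5 to 6 with a library left out. In sgUFM1 against set 1 (3 called) it was 1 in the fit over all 12 libraries and 0 to 4 with a library left out. In set 1 against set 2 (2 called) it was 1 with either kind of offsets, 0 with limma at each pseudocount and 0 to 2 with a library left out. For the difference of guide effects (5 called, under either naming) it was 2 with either kind of offsets and with the block and offsets, and 5 to 7 with a library left out. KRT81 changed sign with offsets, with the block and offsets, and with offsets from the longest transcript, in set 2 against the controls (-0.0831, -0.0665 and -0.0257), in sgUFM1 against set 2 (0.201, 0.201 and 0.172) and in the difference of guide effects (-0.315, -0.304 and -0.24). KRT19 changed sign in the last (-0.0385 with the longest transcript). Apart from the offsets themselves, the cause of these changes was not tested. Replicate numbers gave no uniform pairing of the libraries. Same-numbered libraries had deviations correlated from -0.21 to 0.38, and differently numbered ones from -0.57 to 0.37. Whether some groups were paired cannot be told from these values. The replicate block ended the KRT18 call in sgUFM1 against set 1 (-0.36, adjusted p = 0.057 in edgeR) and added one in the difference of guide effects (0.52, adjusted p = 0.034 in edgeR), and 54 of 56 calls stayed on their side. RLE scaling kept all 56. The share of all genes called moved by over 1.5 times in several fits. It went from 10% to 16.2% (all 12 libraries) or 2.79% to 3.08% (limma) for sgUFM1 against the controls for sgUFL1. It went from 1.1% to 0% (RLE, offsets, block, limma), 6.48% (no filter), 15.1% (DESeq2) or 21.9% (all 12) for set 1 against those controls. It went from 35.8% to 8.7% with offsets and 18% without the filter for set 2, from 37.8% to 18.2% without the filter and 19.1% with all 12 for sgUFM1 against set 2, from 9.72% to 5.37% to 5.69% (limma, all 12) for sgUFM1 against set 1, from 2.2% to 0.196% to 5.53% (limma, block) for set 1 against set 2, and from 34.8% to 9.18% with offsets and 16.2% without the filter for the difference of guide effects. With a library left out the share ranged from 1.78% to 27.1%, 0% to 15.7%, 16% to 44.9%, 27% to 42.3%, 0.768% to 26.7%, 0.0844% to 16.7% and 25.1% to 39%, in the same order of comparisons. Depth left CDH1 untested.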

Other observations

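Some other filament, linker and epithelial genes were higher in sgUFM1 than in the controls for sgUFL1. Over all genes 5.57% were higher and 4.43% lower (4.3% and 3.9% with offsets). Of 7 other intermediate filament genes tested 1 was higher and 0 lower in both fits. Of 11 desmosome and linker genes 2 were higher and 2 lower (1 and 1 with offsets). Of 19 tight junction genes 1 was higher and 0 lower (3 and 0 with offsets). Of 16 adherens junction genes 3 were higher and 0 lower (1 and 2 with offsets). NES, which encodes the intermediate filament protein nestin, was higher in sgUFM1 by 0.98 (SE 0.13, adjusted p = 0.0015 in edgeR; with offsets 0.75). PLEC, which encodes plectin, a linker of filaments to junctions, was higher by 0.79 (SE 0.15, adjusted p = 0.0095 in edgeR; with offsets 0.42). SPINT2, an epithelial protease inhibitor, was higher by 0.59 (SE 0.12, adjusted p = 0.014 in edgeR; with offsets 0.40). Without offsets PLEC and SPINT2 were similarly high in sets 1 and 2. SPINT2 averaged 238 CPM in those controls and 358 to 384 CPM in the other groups. PLEC was higher than in the controls by 0.86 in set 1 (adjusted p = 0.049 in edgeR) and 0.69 in set 2 (adjusted p = 0.0033 in edgeR). With offsets neither gene passed in set 1 or set 2 (PLEC 0.33 and 0.09, adjusted p = 0.71 and 0.70 in edgeR; SPINT2 0.30 and 0.32, adjusted p = 0.71 and 0.078). PLEC was then higher in sgUFM1 than in set 2 (0.315, adjusted p = 1.03e-05 in edgeR). NES was higher in set 2 (0.78, adjusted p = 0.0016 in edgeR) but not in set 1 (0.12, adjusted p = 0.59 in edgeR). Of 13 tested regulators and markers of the epithelial state 3 were higher and 0 lower in sgUFM1 than in these controls, with and without offsets, against 5.57% and 4.43% of all genes (4.3% and 3.9% with offsets). Against set 2, PLEKHA7, which encodes an adherens junction protein, was lower in sgUFM1 by 1.41 (SE 0.18, adjusted p = 5.2e-06 in edgeR), and NECTIN3, which encodes a junction adhesion protein, was higher by 0.81 (SE 0.09, adjusted p = 1.7e-06 in edgeR; with offsets 0.60).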
